A study of Homo sapiens with 12 samples.

Results

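Interferon-stimulated genes are genes whose transcription rises when a cell receives an interferon, and they are described here together with the receptors, sensors and transcription factors of the same pathway. The 44 members were taken from a list of gene symbols, each matched to the Ensembl ID of a row in the count table, and all 44 were found among its 57992 entries. They comprised 5 receptor and kinase genes, 3 sensors, 5 STAT and IRF factors and 31 effectors. Of these, 40 passed the filter on low counts and entered the test.

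The study sequenced poly(A) RNA of human prostate adenocarcinoma cell lines that differ in their response to enzalutamide, an antiandrogen, and its title names Notch signalling. LNCaP is an androgen-responsive line from a lymph node metastasis, and the labels call it sensitive. C4-2 is a subline of LNCaP that grows under castration and that the labels also call sensitive. MR49F was derived from LNCaP as well and is called resistant. Each line was represented by 3 biological replicates, and C4-2R, the other resistant line of the labels, was not analysed here. No interferon, virus or other stimulus is named in the labels of any of these groups, so the values are those of cells without a stated stimulus. Each group is 1 cell line, so resistance and every other property that sets MR49F apart from LNCaP cannot be told apart, and p-values measure the spread between replicate samples of a line.

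Cells detect foreign or misplaced RNA with the sensors RIG-I (gene RIGI), MDA5 (IFIH1) and LGP2 (DHX58). The signal of RIG-I and MDA5 runs through MAVS to IRF3 and IRF7 and switches on interferon genes. Type I interferons bind IFNAR1 with IFNAR2 and, through the kinases JAK1 and TYK2, activate STAT factors such as STAT2, which join IRF9 and bind the interferon-stimulated response element (ISRE). Interferon gamma binds IFNGR1 with IFNGR2 and signals through JAK1 and JAK2 to the gamma-activated site (GAS). The effectors made in response block viral entry, degrade or edit RNA, stop translation or attach the ubiquitin-like protein ISG15 to other proteins. Tumour lines can hold a standing level of many of these transcripts in culture.

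The ISRE was searched as GAAA, any 2 bases and GAAA again, on both strands, so that TTTC, any 2 bases and TTTC also counts, and the GAS as TTCNNNGAA, which reads the same on both strands. The search covered the 250 bases before each start site in the RefSeq promoter table (GRCh38.p14), in which 34 of the 44 members had an entry. An ISRE match stood before 19 of the 34 members (55.9%), against 1014 of all 27305 symbols in that table (3.71%). It stood before 18 of the 25 matched effectors (72.0%). A GAS match stood before 9 of 34 members (26.5%), against 8.09% of all symbols, and in 3 members a GAS match overlapped an ISRE match. A match is a description of letters, and binding was not measured. The 30 bases around the match nearest the start site are shown for 7 of the effectors that fell in MR49F against LNCaP, followed by 3 that rose, each read 5′ to 3′ on the strand of the gene with ISRE matches in capitals.
IFIT1: ttagTTTCACTTTCcccTTTCGGTTTCcct
IFIT3: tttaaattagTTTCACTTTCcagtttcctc
OAS3: gttcggagagccgggcggGAAAACGAAAcc
IFITM3: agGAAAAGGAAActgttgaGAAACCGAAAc
BST2: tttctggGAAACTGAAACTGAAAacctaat
SAMD9: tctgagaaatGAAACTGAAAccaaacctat
ISG20: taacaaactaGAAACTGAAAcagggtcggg
IFIT5: cttacgtttagTTTCGATTTCttaagtttc
HERC5: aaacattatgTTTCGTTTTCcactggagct
PARP14: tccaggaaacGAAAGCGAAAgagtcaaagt
On GRCh38.p14 the windows of the genes that fell lie at chr10:89392503-89392532 on the + strand (IFIT1), chr10:89327865-89327894 on the + strand (IFIT3), chr12:112938444-112938473 on the + strand (OAS3) and chr11:320885-320914 on the - strand (IFITM3). Those of BST2, SAMD9 and ISG20 lie at chr19:17405738-17405767 on the - strand, chr7:93118096-93118125 on the - strand and chr15:88638937-88638966 on the + strand. The windows of the genes that rose lie at chr10:89414538-89414567 on the + strand (IFIT5), chr4:88457035-88457064 on the + strand (HERC5) and chr3:122680800-122680829 on the + strand (PARP14). The same motif therefore stood before effectors of either direction: in MR49F against LNCaP it was found before 10 of the 16 matched members that fell, 4 of the 6 that rose and 3 of the 10 that did not pass the test. In C4-2 against LNCaP the ISRE was found before 6 of 11 that rose, 4 of 9 that fell and 7 of 12 that did not pass. For MR49F against C4-2 it was found before 3 of 9 that rose, 10 of 17 that fell and 4 of 6 that did not pass. A GAS match stood before 1 of the 6 that rose, 4 of the 16 that fell and 3 of the 10 that did not pass in MR49F against LNCaP. For C4-2 against LNCaP these counts were 6 of 11, 0 of 9 and 2 of 12, and for MR49F against C4-2 0 of 9, 6 of 17 and 2 of 6. The 6 genes are the same in both comparisons, namely BST2, IFI27, IFI35, IRF1, OAS1 and PARP14, so these splits are not separate results. BST2 and IFI27 passed the filter on low counts only with the C4-2 libraries, so their difference of C4-2 was built into the filter.

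Total counts per library ran from 6990461 to 9375912, except for C4-2 replicate 1 with 42770072. Between replicates of a line, log2 CPM (counts per 1000000 counts of the scaled library) correlated at 0.987 to 0.993 across genes, which are not independent replicates. Chi-square per degree of freedom between replicates, near 1 for counting error alone, was 1.46 to 1.76 in LNCaP and 2 to 5.26 in MR49F. In C4-2 this value was 5.49 to 19.3, with 5.49 for replicates 2 and 3. All 10 luminal prostate markers were detected, with summed levels of 6820 to 7080 CPM in LNCaP, 8760 to 9060 CPM in MR49F and 8680 to 9360 CPM in C4-2. The 9 leukocyte markers summed to at most 1.75 CPM in any library, and 3 of them had no count. The 9 fibroblast and endothelial markers, of which 2 had no count, summed to 29.5 to 33.8 CPM in LNCaP, 8.18 to 9.74 CPM in MR49F and 24.8 to 29.6 CPM in C4-2, and COL1A1 made up most of this sum. This sum was lowest in MR49F, as were many members, and its part in their values was not tested. COL1A1, COL3A1 and VWF were lowest in MR49F by mean. LUM was highest there, at 1.91 CPM against 0.407 CPM in LNCaP and 0 CPM in C4-2. Fewer cells with a transcript and less of it per cell cannot be told apart in bulk RNA. The interferon genes themselves were close to silent: 7 of the 9 listed had no count in any library, and IFNB1 and IFNL1 had 4 counts in all, each in C4-2. Most of these counts were in C4-2 replicate 1, the deepest library.

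More members were lower than higher in MR49F. Against LNCaP, 20 of the 40 tested members fell and 6 rose, or 50.0% and 15.0%, while 22.8% of all 15407 tested genes fell, 24.1% rose and 47.0% changed in either direction (edgeR, Benjamini-Hochberg adjusted p under 0.05). Of the members, 12 fell and 2 rose by more than 2-fold, and their median log2 fold change was -0.47 against 0.01 over all tested genes. In C4-2 against LNCaP, 14 members rose and 11 fell, or 35.0% and 27.5%, against the 26.2% and 23.5% of all tested genes that rose and fell (49.7% in either direction). Their median there was -0.06, and 4 members changed by more than 2-fold in each direction. The share of all tested genes beyond 2-fold was counted in neither comparison, so these 2-fold counts have no background beside them. In MR49F against C4-2, 23 members fell and 9 rose, or 57.5% and 22.5%, against 31.1% and 29.9% of all tested genes (61.0% in either direction), with a median of -0.52. Each line enters 2 of these comparisons, so they are not independent of each other. Of the 40 members, 24 had their lowest mean in MR49F, 11 in C4-2 and 5 in LNCaP, while 17 were highest in C4-2, 15 in LNCaP and 8 in MR49F. The lowest and highest line was not counted over all tested genes. A total of 6 tested members (IFIT3, OASL, IFITM2, BST2, IFI27 and SAMD9) had a mean under 1 CPM in MR49F, BST2 also in LNCaP, and passed the filter through the other lines, so a difference in these was built into the filter. All of them are among the 12 members that fell by more than 2-fold in MR49F against LNCaP.

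**Figure D1:**
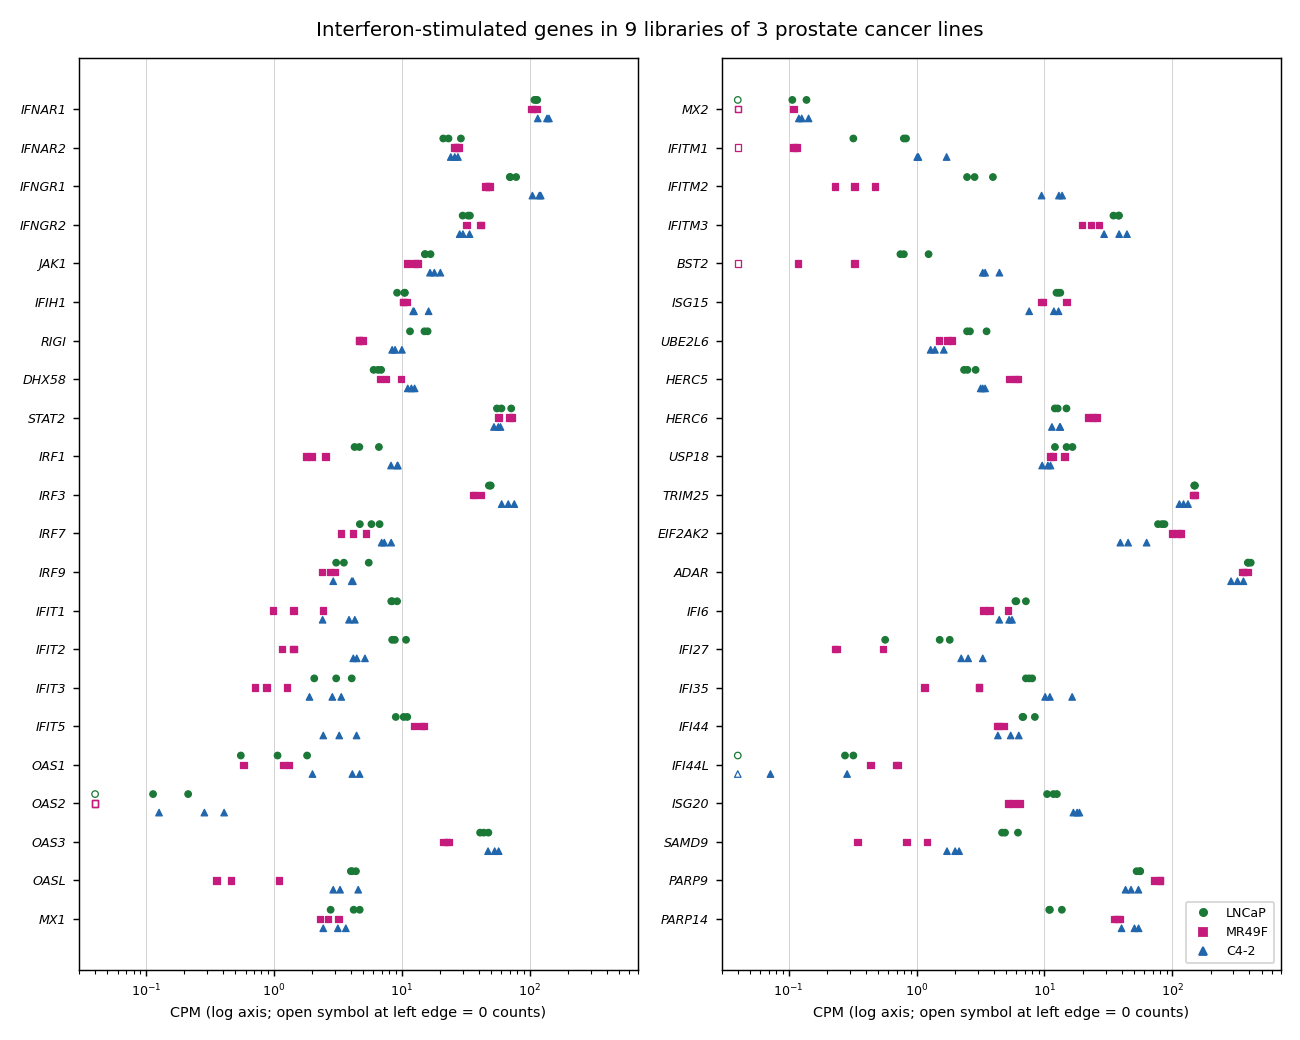
Level of each of the 44 members in CPM on a log axis, with 3 symbols per line for the 3 replicates of LNCaP (circles), MR49F (squares) and C4-2 (triangles), and open symbols at the left edge for libraries with 0 counts. IFIT1, IFIT2, OASL, IFITM2, BST2 and SAMD9 are lowest in MR49F by mean, while IFIT5, HERC5, HERC6 and PARP9 are highest there.

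The summed level of all members ran from 1317 to 1326 CPM in LNCaP, 1244 to 1256 CPM in MR49F and 1240 to 1356 CPM in C4-2. Per length of exon, as RPKM (CPM divided by the exon length in kilobases), the RNA editing enzyme ADAR was the most abundant member in LNCaP and MR49F, at 40.9 and 38.0 RPKM. In C4-2 IFNGR1 stood at 35.2 RPKM and ADAR at 33.4 RPKM, closer to each other than their SD over replicates. The next were IFITM3, IFNGR1 and IFNAR1, with 27.4, 22.2 and 17.8 RPKM in LNCaP.

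Of the receptor genes, the interferon gamma receptor chain IFNGR1 differed in all 3 comparisons, while the type I receptor chains IFNAR1 and IFNAR2 had log2 fold changes between -0.27 and 0.22. IFNGR1 (ENSG00000027697, chromosome 6, 137197484 to 137219449 on GRCh38), the ligand-binding chain of that receptor, had 70.5, 69.9 and 78.3 CPM in LNCaP, 47.3, 45.0 and 48.4 CPM in MR49F and 119, 105 and 122 CPM in C4-2. The 3 lines did not overlap, with C4-2 highest and MR49F lowest. It fell in MR49F against LNCaP (log2 fold change -0.63 ± 0.09 SE, edgeR adjusted p = 6.56e-06) and rose in C4-2 against LNCaP (log2 fold change 0.66 ± 0.09 SE, edgeR adjusted p = 1.7e-06). Between MR49F and C4-2 the IFNGR1 difference was 2.46-fold (log2 fold change -1.30 ± 0.09 SE, edgeR adjusted p = 7.27e-11). Its partner chain IFNGR2 had 32.3 ± 2.17 CPM in LNCaP, 38.3 ± 5.44 CPM in MR49F and 30.8 ± 2.83 CPM in C4-2 (SD, n = 3), and rose in MR49F against C4-2 with a log2 fold change of 0.30 (edgeR adjusted p = 0.0238). That IFNGR2 call was lost without MR49F replicate 1 or 3 or C4-2 replicate 2 or 3, at log2 fold changes of 0.23 to 0.28 (edgeR adjusted p 0.0663 to 0.116). A fit of just the 6 libraries compared also lost that call (0.29, edgeR adjusted p = 0.0576). On the opposite strand, TMEM50B overlaps 12.8% of the IFNGR2 exon bases. A call of IFNGR2 as higher in MR49F than in LNCaP appeared without MR49F replicate 2 or C4-2 replicate 1 (edgeR adjusted p 0.0167 and 0.0302). The fit of just the 6 libraries of MR49F and LNCaP gave that call too (edgeR adjusted p = 0.048).

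IFNAR1, a chain of the type I interferon receptor, had 112 ± 2.87 CPM in LNCaP, 108 ± 5.48 CPM in MR49F and 131 ± 13.7 CPM in C4-2 (SD, n = 3). It rose in C4-2 against LNCaP by 0.22 on the log2 scale (edgeR adjusted p = 0.0368), and it fell in MR49F against C4-2 (log2 fold change -0.27 ± 0.09 SE, edgeR adjusted p = 0.00902). The first of these calls was lost when any 1 of the 3 LNCaP replicates, or C4-2 replicate 2 or 3, was left out, at edgeR adjusted p of 0.0701 to 0.138. A fit of just the 6 libraries compared also lost that first call (edgeR adjusted p = 0.053). IFNAR2, the other chain, did not pass the test in any comparison, with 24.4 ± 4.08 CPM in LNCaP, 26.8 ± 0.888 CPM in MR49F and 25.9 ± 1.67 CPM in C4-2 (SD, n = 3); its exons overlap the readthrough gene IFNAR2-IL10RB over 44.2% of their bases. JAK1, the kinase that serves both receptors, had 16.8, 15.2 and 15.2 CPM in LNCaP, 12.7, 13.3 and 11.1 CPM in MR49F and 16.6, 18.0 and 20.03 CPM in C4-2. The MR49F libraries were lower than all others, but the JAK1 difference from LNCaP was small (log2 fold change -0.35 ± 0.13 SE, edgeR adjusted p = 0.0335) and was lost without LNCaP replicate 1 or MR49F replicate 1 or 3, at edgeR adjusted p of 0.0642 to 0.119. DESeq2 also lost that JAK1 call (-0.36, DESeq2 adjusted p = 0.0619). Against C4-2 the JAK1 log2 fold change in MR49F was -0.54 ± 0.13 SE (edgeR adjusted p = 0.000954). Per length of exon, JAK1 stood at 2.49 RPKM in LNCaP, below TYK2 at 12.1 RPKM and JAK2 at 7.58 RPKM.

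The 3 RNA sensors moved differently from each other. RIGI (ENSG00000107201, chromosome 9, 32455705 to 32526324), which recognises RNA with a triphosphate end, had 15.9, 11.6 and 15.0 CPM in LNCaP, 4.92, 4.63 and 4.61 CPM in MR49F and 8.41, 8.86 and 10.02 CPM in C4-2. The 3 lines did not overlap, with LNCaP highest and MR49F lowest. RIGI fell 2.99-fold in MR49F (log2 fold change -1.58 ± 0.17 SE, edgeR adjusted p = 1.16e-07) and 1.59-fold in C4-2 (log2 fold change -0.67 ± 0.14 SE, edgeR adjusted p = 0.000659), both against LNCaP. MR49F also lay below C4-2, at -0.91 ± 0.17 SE on the log2 scale (edgeR adjusted p = 8.86e-05). DHX58, which encodes LGP2, a helicase without the signalling domains of the other sensors, was highest in C4-2 with 6.51, 6.02 and 6.89 CPM in LNCaP, 9.85, 6.77 and 7.49 CPM in MR49F and 12.6, 11.1 and 11.9 CPM in C4-2. All C4-2 libraries exceeded all others, and DHX58 rose there against LNCaP (log2 fold change 0.89 ± 0.16 SE, edgeR adjusted p = 7.69e-05) but did not pass the test in MR49F against LNCaP (log2 fold change 0.32, edgeR adjusted p = 0.132). IFIH1, the sensor of long double-stranded RNA, had 10.1 ± 0.773 CPM in LNCaP, 10.5 ± 0.378 CPM in MR49F and 13.6 ± 2.22 CPM in C4-2 (SD, n = 3). It rose in C4-2 against LNCaP by 0.41 on the log2 scale (edgeR adjusted p = 0.0194), a call lost without LNCaP replicate 1 (0.35, edgeR adjusted p = 0.104) or C4-2 replicate 2 (0.30, edgeR adjusted p = 0.0727). All 3 sensors were lower in MR49F than in C4-2, as were 31.1% of all tested genes. For IFIH1 that call (-0.35, edgeR adjusted p = 0.0339) was lost when any 1 MR49F replicate, or C4-2 replicate 2, was left out, at edgeR adjusted p of 0.0574 to 0.117. DESeq2 also lost that IFIH1 call (-0.36, DESeq2 adjusted p = 0.065).

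Among the transcription factors, IRF1 and IRF3 were ordered C4-2, LNCaP, MR49F from high to low, and IRF9 passed the test in none of the 3 comparisons. IRF1 (ENSG00000125347, chromosome 5, 132481609 to 132490798), a factor induced by interferon gamma that binds ISRE-like sites, had 6.62, 4.66 and 4.27 CPM in LNCaP, 1.97, 1.78 and 2.54 CPM in MR49F and 8.24, 9.24 and 9.30 CPM in C4-2. No libraries of different lines overlapped. IRF1 fell in MR49F against LNCaP (log2 fold change -1.32 ± 0.24 SE, edgeR adjusted p = 0.000108), rose in C4-2 against LNCaP (log2 fold change 0.74 ± 0.18 SE, edgeR adjusted p = 0.00173) and was 4.17-fold lower in MR49F than in C4-2 (edgeR adjusted p = 4.14e-08). Antisense transcript IRF1-AS1 covers 1716 of the IRF1 exon bases, and because the strand setting of the counting is not given, reads of the pair cannot be told apart. IRF3, the factor that sensors activate first, had 49.2, 49.5 and 48.0 CPM in LNCaP, 37.4, 41.7 and 36.0 CPM in MR49F and 75.8, 60.4 and 68.0 CPM in C4-2. These values did not overlap between lines either, and the log2 fold changes were -0.35 ± 0.10 SE in MR49F (edgeR adjusted p = 0.0068) and 0.49 ± 0.10 SE in C4-2 (edgeR adjusted p = 0.00026), both against LNCaP. BCL2L12 lies on the opposite strand over 19.3% of the IRF3 exon bases.

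IRF7, the factor that amplifies interferon production, had 5.73 ± 1.003 CPM in LNCaP, 4.24 ± 0.944 CPM in MR49F and 7.51 ± 0.676 CPM in C4-2 (SD, n = 3), and it was lower in MR49F than in C4-2 (log2 fold change -0.86 ± 0.19 SE, edgeR adjusted p = 0.000497). Against LNCaP it did not pass the test in either line, at log2 fold changes of -0.43 in MR49F and 0.43 in C4-2 (edgeR adjusted p = 0.0937 and 0.0533). The C4-2 difference passed without LNCaP replicate 2, MR49F replicate 3 or C4-2 replicate 2 (edgeR adjusted p 0.03 to 0.0496), and the MR49F difference without MR49F replicate 2 (edgeR adjusted p = 0.045). STAT2, a factor of the type I response, had 62.4 ± 8.36 CPM in LNCaP, 66.5 ± 8.44 CPM in MR49F and 56.2 ± 3.31 CPM in C4-2 (SD, n = 3). Its single call, higher in MR49F than in C4-2 (0.25 on the log2 scale, edgeR adjusted p = 0.0451), was lost under 11 of 16 alternatives, which include leaving out LNCaP replicate 1 or 2, MR49F replicate 1 or 2, or C4-2 replicate 1 or 3 (adjusted p 0.0513 to 0.198, edgeR or DESeq2). IRF9, the DNA-binding partner of STAT2, had 4.04 ± 1.30 CPM in LNCaP, 2.70 ± 0.312 CPM in MR49F and 3.71 ± 0.691 CPM in C4-2 (SD, n = 3) and passed the test in no comparison. An IRF9 call appeared in MR49F against LNCaP without LNCaP replicate 2 (-0.73, edgeR adjusted p = 0.0412) and in MR49F against C4-2 without C4-2 replicate 2 (-0.61, edgeR adjusted p = 0.0281). A gene on the same strand shares 48.4% of the IRF9 exon bases.

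The IFIT genes, whose proteins bind foreign RNA and block its translation, lie side by side on chromosome 10 from 89283694 to 89421001 and went in opposite directions in MR49F against LNCaP, IFIT1, IFIT2 and IFIT3 falling and IFIT5 rising. IFIT1 (ENSG00000185745, chromosome 10, 89392546 to 89406486) had 9.19, 8.41 and 8.27 CPM in LNCaP, 0.985, 1.43 and 2.42 CPM in MR49F and 3.87, 2.40 and 4.29 CPM in C4-2. LNCaP lay above both other lines, and the lowest C4-2 library overlapped the highest MR49F library. IFIT1 fell 5.36-fold in MR49F (log2 fold change -2.42 ± 0.26 SE, edgeR adjusted p = 1.49e-07) and 2.38-fold in C4-2 (log2 fold change -1.25 ± 0.21 SE, edgeR adjusted p = 3.95e-05), both against LNCaP. IFIT2 (ENSG00000119922, chromosome 10, 89283694 to 89309276) had 10.8, 8.41 and 8.82 CPM in LNCaP, 1.42, 1.43 and 1.15 CPM in MR49F and 4.44, 4.18 and 5.15 CPM in C4-2. Its 3 lines did not overlap, and it fell 6.98-fold in MR49F (log2 fold change -2.80 ± 0.22 SE, edgeR adjusted p = 1.44e-09) and 2.06-fold in C4-2 (log2 fold change -1.05 ± 0.16 SE, edgeR adjusted p = 2.36e-05). IFIT3, which stabilises IFIT1 on its RNA, had 4.06, 3.07 and 2.07 CPM in LNCaP, 0.875, 0.713 and 1.27 CPM in MR49F and 3.36, 1.90 and 2.86 CPM in C4-2. Only MR49F stood apart for IFIT3 among these 9 libraries (log2 fold change -1.70 ± 0.35 SE, edgeR adjusted p = 0.000465 against LNCaP), and in C4-2 against LNCaP the log2 fold change was -0.09 ± 0.26 SE (edgeR adjusted p = 0.797).

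IFIT5 (ENSG00000152778, chromosome 10, 89414586 to 89421001) begins 8099 bases after the end of IFIT1 and had 8.97, 10.3 and 11.03 CPM in LNCaP, 14.9, 12.5 and 14.3 CPM in MR49F and 3.24, 4.43 and 2.43 CPM in C4-2. The lines did not overlap, and their order was MR49F, LNCaP, C4-2 from high to low. The rise of IFIT5 in MR49F against LNCaP was small (log2 fold change 0.46 ± 0.16 SE, edgeR adjusted p = 0.0191) and was lost without LNCaP replicate 1 or 2 or MR49F replicate 1 or 3, at log2 fold changes of 0.37 to 0.47 (edgeR adjusted p 0.0518 to 0.117). Its fall in C4-2 against LNCaP was 3.01-fold (log2 fold change -1.59 ± 0.18 SE, edgeR adjusted p = 3e-07). Between the derived lines, IFIT5 was 4.15-fold higher in MR49F than in C4-2 (edgeR adjusted p = 2.03e-09), while IFIT1, IFIT2 and IFIT3 were lower there by 2.25-fold, 3.38-fold and 3.06-fold (edgeR adjusted p = 0.00107, 1.7e-06 and 0.000268).

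**Figure D2:**
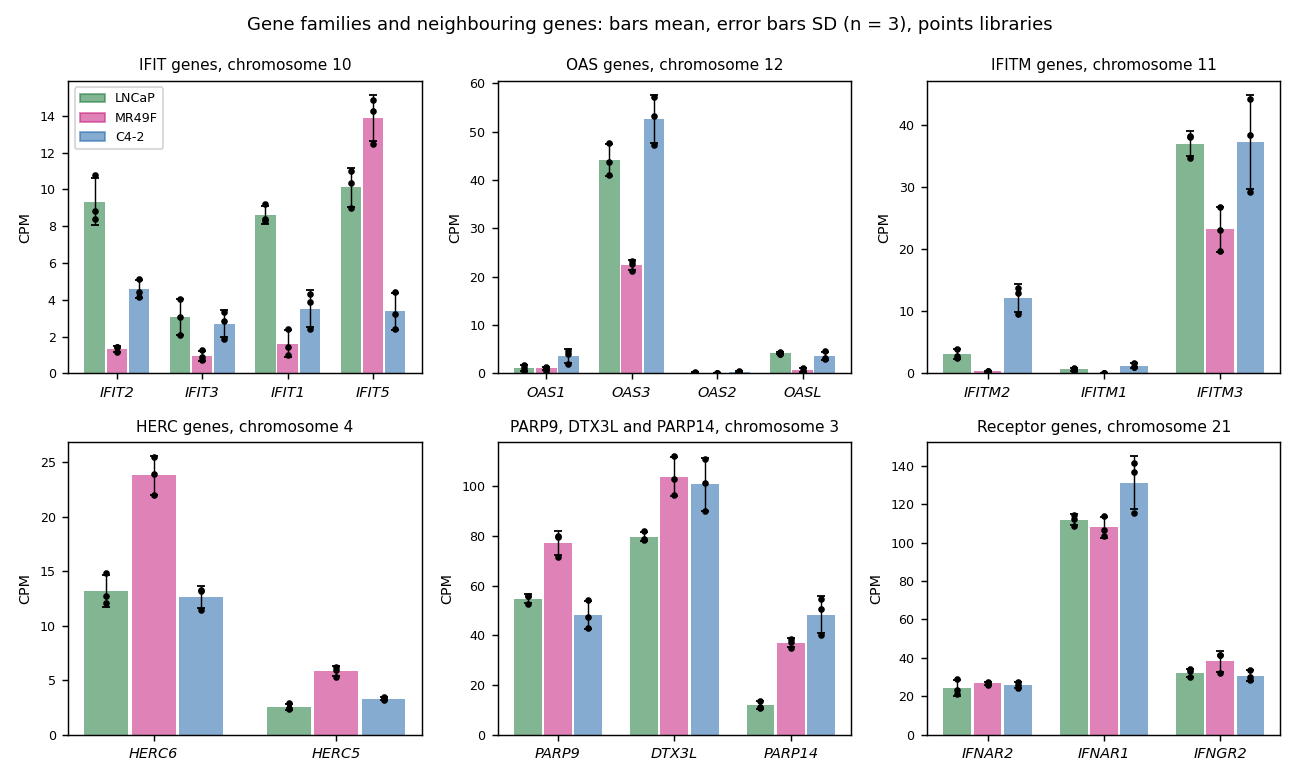
Level in CPM (linear axis from 0) of members that form families or lie near each other, with DTX3L added between PARP9 and PARP14; bars are means of 3 replicates, error bars the SD and points the single libraries of LNCaP (green), MR49F (pink) and C4-2 (blue). IFIT2, IFIT3 and IFIT1 are lowest in MR49F by mean while IFIT5 is highest there, and HERC6 and HERC5 are both highest in MR49F.

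The OAS enzymes make short oligoadenylates in response to double-stranded RNA. Their tested members were lower in MR49F than in C4-2 in 3 of 3 cases, against 31.1% of all tested genes. OAS3 (ENSG00000111331, chromosome 12, 112938352 to 112973249), the most abundant of them per length at 5.34 RPKM in LNCaP against 1.18 RPKM for OASL and 0.232 RPKM for OAS1, had 47.5, 43.7 and 40.9 CPM in LNCaP, 22.6, 23.2 and 21.2 CPM in MR49F and 47.2, 57.2 and 53.2 CPM in C4-2. MR49F lay apart from both other lines, and OAS3 fell there 1.98-fold against LNCaP (log2 fold change -0.98 ± 0.11 SE, edgeR adjusted p = 1.55e-07). In C4-2 against LNCaP OAS3 rose by only 0.24 on the log2 scale (edgeR adjusted p = 0.0461), and this call was lost under 11 of 16 alternatives (adjusted p 0.0512 to 0.187, edgeR or DESeq2), which include leaving out LNCaP replicate 2 or 3, MR49F replicate 1 or 2, or C4-2 replicate 2 or 3. OASL, a family member without the synthetase activity that supports RIG-I signalling, had 4.38, 4.09 and 3.997 CPM in LNCaP, 1.09, 0.356 and 0.461 CPM in MR49F and 4.56, 2.91 and 3.29 CPM in C4-2. MR49F did not overlap the others, and the OASL fall against LNCaP was 6.35-fold (log2 fold change -2.67 ± 0.35 SE, edgeR adjusted p = 2.33e-06), while C4-2 against LNCaP gave -0.09 ± 0.23 SE (edgeR adjusted p = 0.759).

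OAS1 was rare in all 3 lines, with 1.07, 1.82 and 0.551 CPM in LNCaP, 1.31, 1.19 and 0.576 CPM in MR49F and 4.11, 4.68 and 2.00 CPM in C4-2. C4-2 lay above both others, and OAS1 rose there 3.201-fold against LNCaP (log2 fold change 1.68 ± 0.35 SE, edgeR adjusted p = 0.00042), while MR49F and LNCaP overlapped (log2 fold change -0.19 ± 0.47 SE, edgeR adjusted p = 0.77). MX1, a GTPase that traps viral nucleocapsids, had 3.89 ± 0.993 CPM in LNCaP, 2.72 ± 0.458 CPM in MR49F and 3.08 ± 0.613 CPM in C4-2 (SD, n = 3) and passed the test in no comparison. Without LNCaP replicate 1, MX1 was called lower in MR49F than in LNCaP (-0.72, edgeR adjusted p = 0.0385).

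IFITM2 and BST2, membrane proteins that block viral entry and virus release, had the largest differences between MR49F and C4-2 among the tested members. IFITM2 (ENSG00000185201, chromosome 11, 307631 to 315272) had 3.95, 2.84 and 2.48 CPM in LNCaP, 0.328, 0.475 and 0.231 CPM in MR49F and 12.97, 9.49 and 13.7 CPM in C4-2. The 3 lines were far from overlapping, with MR49F under 1 CPM in each library. IFITM2 fell 8.90-fold in MR49F (log2 fold change -3.15 ± 0.40 SE, edgeR adjusted p = 1.71e-06), rose 3.88-fold in C4-2 (log2 fold change 1.96 ± 0.20 SE, edgeR adjusted p = 6.13e-08), both against LNCaP, and was 34.5-fold lower in MR49F than in C4-2 (log2 fold change -5.11 ± 0.30 SE, edgeR adjusted p = 8.76e-12). IFITM3 was far more abundant per length, at 27.4 RPKM against 2.00 RPKM for IFITM2 in LNCaP, and had 34.6, 38.2 and 38.0 CPM in LNCaP, 23.1, 26.7 and 19.6 CPM in MR49F and 44.1, 29.2 and 38.4 CPM in C4-2. MR49F was lower than both other lines, and gave -0.67 ± 0.14 SE on the log2 scale against LNCaP (edgeR adjusted p = 0.000419), and LNCaP and C4-2 overlapped (0.04 ± 0.13 SE, edgeR adjusted p = 0.811). IFITM1, IFITM2 and IFITM3 are close copies of each other, and IFITM1 and IFITM2 share exon bases, so the split of reads among the 3 is uncertain.

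BST2 (ENSG00000130303, chromosome 19, 17402939 to 17405648), known as tetherin, had 0.748, 0.795 and 1.24 CPM in LNCaP, 0.328, 0.119 and 0 CPM in MR49F and 4.44, 3.29 and 3.43 CPM in C4-2. The lines did not overlap, and each C4-2 library lay above each LNCaP library, which lay above each MR49F library. BST2 rose 4.31-fold in C4-2 against LNCaP (log2 fold change 2.11 ± 0.31 SE, edgeR adjusted p = 1.1e-05). It fell in MR49F against LNCaP (log2 fold change -2.49 ± 0.66 SE, edgeR adjusted p = 0.00384) and was lower in MR49F than in C4-2 (log2 fold change -4.60 ± 0.45 SE, edgeR adjusted p = 2.39e-08). The MR49F values of BST2 rest on 4 counts over its 3 libraries. BST2 reached the filter on low counts in 1 library of LNCaP, 0 of MR49F and 3 of C4-2. It passed only with the C4-2 libraries, where it is highest, so a difference of C4-2 was built into the filter.

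Genes of the ISG15 system went partly the other way. ISG15 itself, the ubiquitin-like modifier, had 12.8, 13.3 and 12.4 CPM in LNCaP, 9.74, 9.50 and 14.9 CPM in MR49F and 11.8, 7.59 and 12.9 CPM in C4-2. The lines overlapped, and no comparison passed the test (log2 fold change -0.18 ± 0.18 SE in MR49F and -0.23 ± 0.18 SE in C4-2 against LNCaP, edgeR adjusted p = 0.458 and 0.3). HERC5, the main ligase that attaches ISG15, had 2.35, 2.50 and 2.90 CPM in LNCaP, 5.91, 5.34 and 6.22 CPM in MR49F and 3.17, 3.29 and 3.43 CPM in C4-2. All MR49F libraries were above all others, and HERC5 rose 2.27-fold in MR49F against LNCaP (log2 fold change 1.18 ± 0.20 SE, edgeR adjusted p = 6.32e-05). HERC6, the ligase gene next to it on chromosome 4 at a distance of 14005 bases, had 14.8, 12.04 and 12.7 CPM in LNCaP, 23.9, 21.97 and 25.5 CPM in MR49F and 11.4, 13.3 and 13.2 CPM in C4-2. It too was highest in every MR49F library, with a 1.80-fold rise against LNCaP (log2 fold change 0.85 ± 0.13 SE, edgeR adjusted p = 1.28e-05). In C4-2 against LNCaP neither ligase passed the test, with log2 fold changes of 0.34 for HERC5 and -0.10 for HERC6 (edgeR adjusted p = 0.18 and 0.561).

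UBE2L6, the conjugating enzyme of ISG15, was lower in both derived lines, with 2.87 ± 0.568 CPM in LNCaP, 1.72 ± 0.203 CPM in MR49F and 1.44 ± 0.177 CPM in C4-2 (SD, n = 3). Its log2 fold changes against LNCaP were -0.75 ± 0.27 SE in MR49F and -0.92 ± 0.25 SE in C4-2 (edgeR adjusted p = 0.0266 and 0.00416). The MR49F call of UBE2L6 was lost without LNCaP replicate 1 or MR49F replicate 1 or 3, at edgeR adjusted p of 0.0604 to 0.152. DESeq2 (DESeq2 adjusted p = 0.0987) and a fit without a count filter (edgeR adjusted p = 0.0509) also lost that call. USP18, which removes ISG15 and dampens the receptor, had 14.5 ± 2.26 CPM in LNCaP, 12.3 ± 1.75 CPM in MR49F and 10.4 ± 0.793 CPM in C4-2 (SD, n = 3). It fell in C4-2 against LNCaP (-0.44 on the log2 scale, edgeR adjusted p = 0.0157), and this was lost without LNCaP replicate 2 or 3 or C4-2 replicate 3 (edgeR adjusted p 0.0514 to 0.0936). TRIM25, a ligase that assists RIG-I, was level in LNCaP and MR49F at 149 ± 0.860 and 148 ± 2.04 CPM and stood at 123 ± 9.48 CPM in C4-2 (SD, n = 3). Its C4-2 libraries lay below all others, at -0.29 ± 0.08 SE on the log2 scale against LNCaP (edgeR adjusted p = 0.00431).

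Both members that bind double-stranded RNA to stop translation or to edit it were lower in C4-2. Against LNCaP, 23.5% of all tested genes fell there. EIF2AK2 (ENSG00000055332, chromosome 2, 37099210 to 37157065), which encodes the kinase PKR, had 82.8, 86.7 and 77.2 CPM in LNCaP, 99.1, 109.5 and 116 CPM in MR49F and 39.2, 62.9 and 45.1 CPM in C4-2. The order was MR49F, LNCaP, C4-2 without overlap, and C4-2 lay 1.71-fold below LNCaP (log2 fold change -0.77 ± 0.13 SE, edgeR adjusted p = 4.18e-05). The rise of EIF2AK2 in MR49F against LNCaP (log2 fold change 0.40 ± 0.12 SE, edgeR adjusted p = 0.012) was lost without LNCaP replicate 3 (0.34, edgeR adjusted p = 0.062) or MR49F replicate 3 (0.33, edgeR adjusted p = 0.0662). MR49F exceeded C4-2 by 1.17 ± 0.13 SE on the log2 scale (edgeR adjusted p = 1.11e-07). ADAR, which edits adenosine to inosine in double-stranded RNA, had 397 ± 11.2 CPM in LNCaP, 368 ± 17.4 CPM in MR49F and 323 ± 35.8 CPM in C4-2 (SD, n = 3). It fell in C4-2 against LNCaP (log2 fold change -0.30 ± 0.08 SE, edgeR adjusted p = 0.00475) and was 0.19 higher in MR49F than in C4-2 on the log2 scale (edgeR adjusted p = 0.0485). That last ADAR call was lost under 12 of 16 alternatives (adjusted p 0.0537 to 0.161, edgeR or DESeq2), leaving out any library other than C4-2 replicate 2 among them.

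All 4 tested IFI genes fell in MR49F against LNCaP, as did 22.8% of all tested genes. IFI35, a protein that binds the factor NMI, had 8.01, 7.16 and 7.58 CPM in LNCaP, 3.06, 3.09 and 1.15 CPM in MR49F and 16.4, 10.1 and 11.02 CPM in C4-2. The lines did not overlap, MR49F being lowest and C4-2 highest, with log2 fold changes against LNCaP of -1.63 ± 0.28 SE in MR49F and 0.80 ± 0.20 SE in C4-2 (edgeR adjusted p = 6.35e-05 and 0.0027). IFI27, a mitochondrial protein used as a marker of interferon exposure, had 1.82, 0.568 and 1.52 CPM in LNCaP, 0.547, 0.237 and 0.231 CPM in MR49F and 2.23, 2.53 and 3.29 CPM in C4-2. The MR49F libraries were lowest and the C4-2 libraries highest, with LNCaP replicate 2 just above the highest MR49F library. IFI27 fell in MR49F (log2 fold change -1.89 ± 0.54 SE, edgeR adjusted p = 0.00678) and rose in C4-2 (log2 fold change 0.95 ± 0.33 SE, edgeR adjusted p = 0.0226), both against LNCaP. The fall of IFI27 was lost without LNCaP replicate 1 (-1.53, edgeR adjusted p = 0.0554), and its rise without LNCaP replicate 2 (0.57, edgeR adjusted p = 0.167) or C4-2 replicate 3 (0.83, edgeR adjusted p = 0.0614). DESeq2 also lost the rise of IFI27 (1.01, DESeq2 adjusted p = 0.0591). IFI27 reached the filter on low counts in 2 libraries of LNCaP, 0 of MR49F and 3 of C4-2. It passed only with the C4-2 libraries, so a difference of C4-2 was built into the filter. IFI6, another mitochondrial protein, had 6.37 ± 0.684 CPM in LNCaP, 4.08 ± 0.981 CPM in MR49F and 5.10 ± 0.596 CPM in C4-2 (SD, n = 3). Its fall in MR49F against LNCaP (-0.65, edgeR adjusted p = 0.0117) was lost without LNCaP replicate 1 or MR49F replicate 1 or 2 (edgeR adjusted p 0.0515 to 0.067), and an IFI6 call in MR49F against C4-2 appeared without MR49F replicate 3 (-0.57, edgeR adjusted p = 0.0283). IFI44 had 7.32 ± 0.946 CPM in LNCaP, 4.50 ± 0.302 CPM in MR49F and 5.35 ± 0.989 CPM in C4-2 (SD, n = 3) and fell against LNCaP in MR49F (-0.69, edgeR adjusted p = 0.00566) and in C4-2 (-0.53, edgeR adjusted p = 0.0178). The C4-2 call of IFI44 was lost without LNCaP replicate 3 (-0.43, edgeR adjusted p = 0.0897) or C4-2 replicate 1 (-0.31, edgeR adjusted p = 0.205). DESeq2 also lost that IFI44 call (-0.51, DESeq2 adjusted p = 0.0663).

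The remaining tested effectors were split between falls and rises in MR49F. SAMD9 (ENSG00000205413, chromosome 7, 93099513 to 93118023), which restricts poxviruses, had 4.91, 4.66 and 6.20 CPM in LNCaP, 1.20, 0.831 and 0.346 CPM in MR49F and 1.73, 2.15 and 2.00 CPM in C4-2. LNCaP exceeded C4-2 and C4-2 exceeded MR49F in every library, and SAMD9 fell 6.45-fold in MR49F (log2 fold change -2.69 ± 0.31 SE, edgeR adjusted p = 4.64e-07) and 2.79-fold in C4-2 (log2 fold change -1.48 ± 0.24 SE, edgeR adjusted p = 3.21e-05) against LNCaP. ISG20, an exonuclease of single-stranded RNA, had 11.8, 12.5 and 10.5 CPM in LNCaP, 6.46, 5.70 and 5.19 CPM in MR49F and 18.0, 16.8 and 18.7 CPM in C4-2. The lines did not overlap, MR49F being lowest, with log2 fold changes of -1.003 ± 0.15 SE in MR49F and 0.62 ± 0.13 SE in C4-2 against LNCaP (edgeR adjusted p = 1.44e-05 and 0.000381). PARP14 (ENSG00000173193, chromosome 3, 122680618 to 122730840), an ADP-ribosyltransferase, had 13.7, 11.02 and 10.9 CPM in LNCaP, 37.2, 35.0 and 38.6 CPM in MR49F and 40.0, 54.4 and 50.5 CPM in C4-2. Both derived lines were far above LNCaP, by 3.10-fold in MR49F (log2 fold change 1.63 ± 0.13 SE, edgeR adjusted p = 2.94e-09) and 3.98-fold in C4-2 (log2 fold change 2.00 ± 0.13 SE, edgeR adjusted p = 7.72e-11). Its relative PARP9 had 55.9, 55.9 and 52.5 CPM in LNCaP, 79.8, 71.5 and 79.7 CPM in MR49F and 43.0, 54.3 and 47.5 CPM in C4-2. PARP9 was highest in MR49F without overlap (log2 fold change 0.49 ± 0.09 SE, edgeR adjusted p = 0.000241 against LNCaP), and C4-2 against LNCaP gave -0.20 ± 0.10 SE (edgeR adjusted p = 0.0932). The C4-2 difference of PARP9 passed the test without C4-2 replicate 2 (-0.29, edgeR adjusted p = 0.0108).

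**Figure D3:**
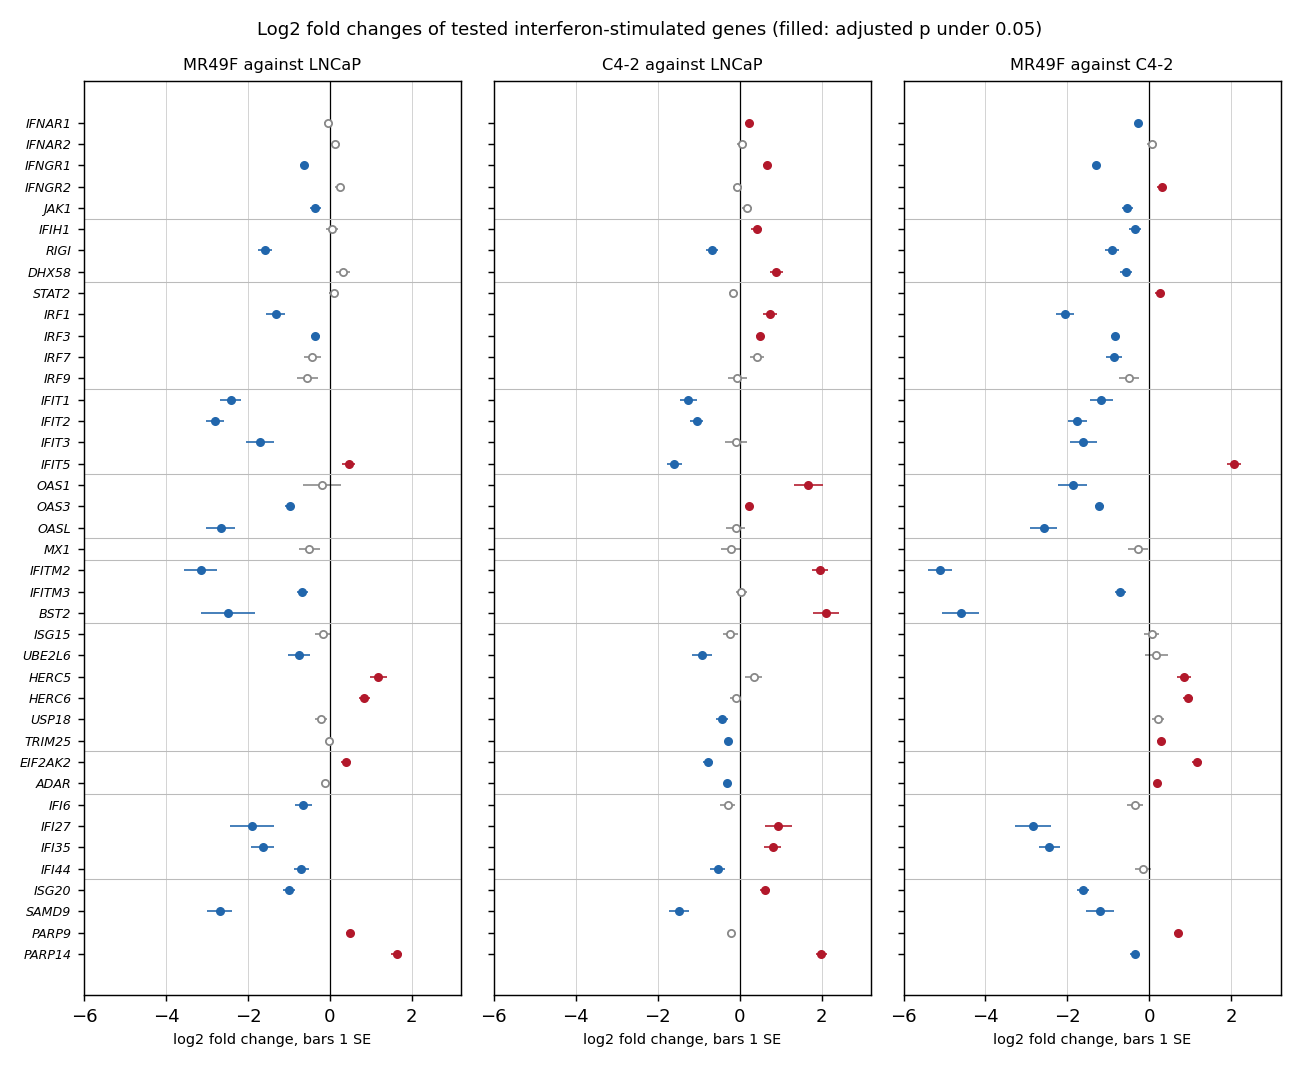
Log2 fold change (x axis, bars 1 SE) of the 40 tested members in MR49F against LNCaP, C4-2 against LNCaP and MR49F against C4-2, with filled symbols for an edgeR adjusted p under 0.05 and thin lines between role groups. In the left panel 20 members are filled to the left of 0 and 6 to the right, and in the middle panel 11 and 14.

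By role, 15 of the 27 tested effectors fell and 6 rose in MR49F against LNCaP, or 55.6% and 22.2%, against 22.8% and 24.1% of all tested genes. None of the 5 receptor and kinase genes, 3 sensors or 5 STAT and IRF factors rose in that comparison, and 2, 1 and 2 of them fell. In C4-2 against LNCaP, 8 of 27 effectors rose and 10 fell, or 29.6% and 37.0%, against 26.2% and 23.5% of all tested genes. There 2 of 5 receptor and kinase genes, 2 of 3 sensors and 2 of 5 factors rose. Of these upstream genes, only RIGI fell in C4-2 against LNCaP. Replicates of MR49F and LNCaP did not overlap in 28 of 40 members (59.8% of all tested genes), those of C4-2 and LNCaP in 27 (55.7% of all) and those of MR49F and C4-2 in 28 (61.9% of all).

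The 4 members that did not enter the test were OAS2, MX2, IFI44L and IFITM1. OAS2, MX2 and IFI44L were near silent, with a mean under 1 CPM in every line. OAS2 was counted 3 times in LNCaP, 20 times in C4-2 (17 of them in replicate 1, the deepest library) and 0 times in MR49F. Scaled for depth, its level in C4-2 was 3.00 times that in LNCaP (exact 95% interval 0.889 to 15.8) and at least 3.09-fold higher than in MR49F, taking 3 counts over the group as the floor. MX2 had 2, 1 and 7 counts in LNCaP, MR49F and C4-2. IFI44L had 5 counts in LNCaP, 16 in MR49F and 5 in C4-2. IFITM1 had 16, 2 and 63 counts, which gave ratios of 8.26 for LNCaP over MR49F (1.94 to 74) and 14.6 for C4-2 over MR49F (3.88 to 123). These intervals and the floor cover counting error only, and they compare pooled libraries, not replicates.

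Of a further list of 84 interferon pathway genes that are not members, 51 were tested. In MR49F against LNCaP 18 of them fell and 13 rose, in C4-2 against LNCaP 7 fell and 20 rose, and in MR49F against C4-2 26 fell and 12 rose, with medians of -0.10, 0.12 and -0.36 on the log2 scale. As shares, 35.3% fell and 25.5% rose in MR49F against LNCaP (22.8% and 24.1% of all tested genes), and 13.7% fell and 39.2% rose in C4-2 against LNCaP (23.5% and 26.2%). The 26 falls and 12 rises in MR49F against C4-2 stand beside 31.1% and 29.9% of all tested genes. PSMB8, PSMB9, APOL1 and PLSCR1 passed the filter only with the C4-2 libraries. They are among the rises in C4-2 against LNCaP and the falls in MR49F against C4-2. STING1, NMI and TRIM22 passed only with the MR49F libraries and are among the rises in MR49F against LNCaP. Differences of these genes were built into the filter, and the shares include them. The kinases TYK2 and JAK2 fell in MR49F against LNCaP, at log2 fold changes of -0.36 and -0.59 (edgeR adjusted p = 0.00339 and 0.000878), and JAK2 fell further in C4-2 (-1.34, edgeR adjusted p = 6e-08). IL10RB, a chain of the interferon lambda receptor, fell in MR49F (-0.49, edgeR adjusted p = 0.0312) and rose in C4-2 (0.80, edgeR adjusted p = 0.000257). STAT3 fell in MR49F (-0.26) and rose in C4-2 (0.24) against LNCaP (edgeR adjusted p = 0.01 and 0.0121). IRF5 fell in MR49F (-0.47, edgeR adjusted p = 0.0129) and PIAS1, an inhibitor of STAT signalling, rose in MR49F (0.47, edgeR adjusted p = 0.00021). Of the 3 comparisons, IRF2 passed the test in MR49F against C4-2 (0.35, edgeR adjusted p = 0.0211).

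Several of these smaller calls were lost when 1 library was left out. The fall of IL10RB in MR49F against LNCaP was lost without LNCaP replicate 2 or 3 or MR49F replicate 1 or 3 (edgeR adjusted p 0.0514 to 0.166), and that of IRF5 without MR49F replicate 3 (0.0552). The rise of STAT3 in C4-2 against LNCaP was lost without LNCaP replicate 1 or 2 (edgeR adjusted p 0.055 and 0.0727). IRF2 lost its call in MR49F against C4-2 without MR49F replicate 3 or C4-2 replicate 2 (edgeR adjusted p 0.07 to 0.0765 over the settings that ended it).

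STING1, the adaptor of the cytosolic DNA sensor cGAS, had the largest difference of the further genes. It stood at 0.534, 0.568 and 0.551 CPM in LNCaP, 20.4, 20.4 and 18.2 CPM in MR49F and 0.456, 0.253 and 0.143 CPM in C4-2. STING1 reached the filter on low counts in no library of LNCaP or C4-2 and passed it through MR49F alone, so a difference of MR49F was built into the filter. All 3 MR49F libraries were far above all others, by 5.13 ± 0.24 SE on the log2 scale against LNCaP (edgeR adjusted p = 2.61e-13) and 5.65 ± 0.22 SE against C4-2 (edgeR adjusted p = 9.47e-15). CGAS, the gene of that DNA sensor, was near silent, with 3 counts in LNCaP, 3 in MR49F and 2 in C4-2, and did not enter the test. The endosomal RNA sensor TLR3 had 5.88 ± 0.318 CPM in LNCaP, 1.14 ± 0.266 CPM in MR49F and 2.72 ± 0.318 CPM in C4-2 (SD, n = 3). Like RIGI, it was highest in LNCaP and lowest in MR49F, with log2 fold changes of -2.35 in MR49F and -1.18 in C4-2 against LNCaP (edgeR adjusted p = 1.33e-07 and 4.48e-05). MAVS, the adaptor of RIG-I and MDA5, was at 215 ± 2.08, 210.2 ± 7.33 and 130.1 ± 16.8 CPM in LNCaP, MR49F and C4-2 (SD, n = 3) and fell in C4-2 against LNCaP (log2 fold change -0.73 ± 0.09 SE, edgeR adjusted p = 6.47e-07). In C4-2 the adaptor TRAF3 fell (-0.35, edgeR adjusted p = 0.0023) and the kinase IKBKE rose (0.88, edgeR adjusted p = 0.000211). TBK1, the kinase that phosphorylates IRF3, and the adaptor TICAM1 passed the test in no comparison, with log2 fold changes against LNCaP of 0.17 and -0.28 in MR49F (edgeR adjusted p = 0.171 and 0.132). TICAM1 was called lower in MR49F than in LNCaP without LNCaP replicate 3 (edgeR adjusted p = 0.0477), and TBK1 higher in MR49F than in C4-2 without MR49F replicate 1 or C4-2 replicate 2 (0.0226 to 0.03). IKBKE was called lower in MR49F than in LNCaP without LNCaP replicate 3 (edgeR adjusted p = 0.042).

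**Figure D4:**
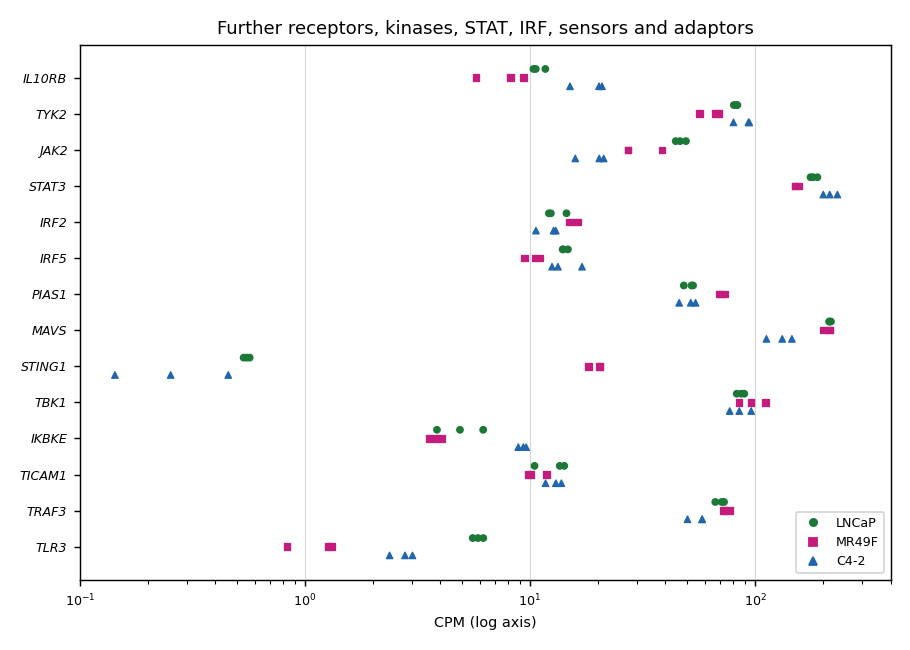
Level in CPM (log axis) of 14 tested receptors, kinases, factors, sensors and adaptors of the further list, with 3 replicates each of LNCaP (circles), MR49F (squares) and C4-2 (triangles). STING1 has a mean of 19.7 CPM in MR49F and lies under 1 CPM in the other lines, while TLR3 is highest in LNCaP.

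Of the further interferon-induced genes, 35 were tested, and genes with the lowest adjusted p in each direction are named. In MR49F against LNCaP the guanylate-binding protein GBP2, DDX60, SLFN5 and TRIM5 fell, at log2 fold changes of -3.50, -1.49, -0.99 and -0.71 (edgeR adjusted p at most 1.73e-05). There TRIM14, PARP10, SP100, LGALS3BP and PNPT1 rose by 0.89, 0.77, 0.998, 0.77 and 0.39 (edgeR adjusted p at most 0.000742). In C4-2 against LNCaP APOL6, PARP10, TRIM14, SP100 and GBP2 rose by 2.77, 1.22, 0.999, 1.52 and 1.38 (edgeR adjusted p at most 2.12e-06), and LAP3, DDX60 and PNPT1, the 3 that fell, gave -0.52, -0.85 and -0.34 (edgeR adjusted p at most 0.00241). In MR49F against C4-2 APOL6, GBP2, SLFN5, TRIM5 and APOL1 fell, at -3.87, -4.88, -1.63, -1.20 and -4.28 (edgeR adjusted p at most 3.7e-08). APOL1 had 5 counts in MR49F in all and passed the filter only with the C4-2 libraries, so its difference was built into the filter. LAP3, PNPT1, OGFR, LGALS3BP and TRIM22 rose in that comparison by 0.87, 0.73, 0.34, 0.42 and 1.32 (edgeR adjusted p at most 0.0168). Of these rises, OGFR was lost without C4-2 replicate 2 (edgeR adjusted p = 0.0605), LGALS3BP without MR49F replicate 2 or C4-2 replicate 2 or 3 (0.0539 to 0.114) and TRIM22 without MR49F replicate 1 or 3 or C4-2 replicate 1 (0.0739 to 0.199 over the settings that ended it). GBP2 in MR49F and TRIM22 in LNCaP and C4-2 had a mean under 1 CPM and passed the filter through other libraries.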

How the data were processed

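RNA of 3 prostate cancer lines was measured in 9 libraries, with 3 replicates per line. The values are whole-number counts per Ensembl gene without normalization, as deposited by the authors. Per the submitters' processing notes, the build was GRCh38.p12 and the tools included TopHat2 and HTSeq 0.6.1, with FastQC 0.11.3 and edgeR 3.12.1. Neither strand setting nor annotation release is given in the sources used here. The table's other 3 columns have names that fit none of the sample titles and entered no step. IDs were matched to symbols, and GENCODE 29 gave coordinates (GRCh38) and exon lengths.

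The quasi-likelihood test of edgeR 4.0.16 in R 4.3.3 (TMM, filterByExpr by line, robust fit, 6 residual degrees of freedom) was fitted to all 9 libraries with 1 mean per line, and p-values were adjusted over 15407 tested genes. CPM are on TMM-scaled library sizes. An adjusted p under 0.05 counted as changed. Standard errors are the size of the log2 fold change over the root of F. The script was tested on simulated data. Alternatives were DESeq2 1.42.0, a replicate block, RLE scaling, a filter of 1 CPM in 3 libraries, no filter at all, a fit of just the 6 libraries compared, C4-2 replicate 1 thinned to 19.4% of its counts, and each library left out.

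The planned comparison with C4-2R was not made. The members, the further list and the tests were chosen with earlier results of these data known. All members are accounted for. Of the further list, tested receptors, kinases, factors and adaptors are named, and of its other genes up to 5 per direction and comparison with the lowest adjusted p. Genes of that list that needed the libraries of C4-2 or of MR49F to pass the filter are named too. Results of some genes of that list are not reported here. Genes named as overlapping were chosen after their values were seen. Total counts ran from 6990461 to 42770072, and a gene under 1 CPM rests on few counts.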

Additional observations from a re-analysis of the deposited data

How the results depend on the processing

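No member changed direction on a called difference under any of the 16 alternatives, 9 of which leave out 1 library. In MR49F against LNCaP, 20 of the 26 called members were called under every alternative that tested them (4 rose, 16 fell, among them BST2), in C4-2 against LNCaP 19 of 25 (10 rose, 9 fell) and in MR49F against C4-2 28 of 32 (6 rose, 22 fell). BST2 and IFI27 did not pass the filter in the fit of just the MR49F and LNCaP libraries and have no value there. With 1 library left out, the members that rose and fell numbered 4 to 7 and 17 to 21, 11 to 15 and 9 to 12, and 6 to 8 and 22 to 23 in these comparisons. Under the other alternatives they numbered 6 to 7 and 18 to 20, 12 to 14 and 10 to 11, and 6 to 9 and 22 to 23. Without a count filter the median log2 fold change of all genes moved from -0.00115 to 0.101 in C4-2 against LNCaP and from -0.00141 to -0.162 in MR49F against C4-2, and the cause was not tested.

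Replicate numbers are shared between lines, but same-numbered samples did not deviate together over all genes. Their correlations were -0.0832 to 0.0562 over 9 pairs, against -0.115 to 0.127 over 18 pairs of unlike numbers. No pairing by number was seen, but these correlations cannot tell whether the numbers pair the samples in some genes. With the replicate number as a block, 6 members rose and 20 fell in MR49F against LNCaP, 13 rose and 11 fell in C4-2 against LNCaP, and 8 rose and 23 fell in MR49F against C4-2. Over all genes the block gave 3646 higher and 3469 lower in MR49F against LNCaP, where 3719 and 3516 were reported without it.

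The standing limits are 3 libraries per line, 1 line per group and low counts. OAS1, IFIT3, SAMD9, OASL, BST2, IFI27 and IFITM2 rest on 4 to 27 counts each over the 3 MR49F libraries, where depth limits the precision of a fold change.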
